A study of Homo sapiens with 5 samples.

Results

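The genes described here build sterols and fatty acids. They are 31 genes listed by name, from the enzymes that make mevalonate and cholesterol to the proteins that sense sterols and the enzymes that make and desaturate fatty acids. All probes of these genes among the 19144 probes given with sample names were taken, with older symbols counted. Probes found only in a larger table of 47321, whose columns match no sample, were not used. In this way 29 of the 31 genes were measured, by 40 of the 19105 probes tested. FDFT1, the squalene synthase, and FADS2, a fatty acid desaturase, were not analysed here. All 40 probes were detected (detection p under 0.05) on all 5 arrays. The filter of at least 2 arrays thus removed none of them, and it kept 19105 of all 19144 probes.

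Both groups were K562 cells, an established human line that grew out of a chronic myeloid leukaemia and carries erythroid features. Both held a stable short hairpin RNA (shRNA) under a Tet-on system and received 1 µg/ml doxycycline for 48 h. The same serum (5%), antibiotics (0.05%), temperature (37 °C) and CO2 (5%) are given for all 5 arrays. The sh-JMJD1B group (3 arrays, called the knockdown) targets JMJD1B, current symbol KDM3B, a histone demethylase, and the sh-CTL group (2 arrays) is the control. The labels do not state the number of hairpins or clones, or separate cultures, so p-values measure the spread between these arrays, which may be technical, and line and knockdown effects cannot be told apart. The targeted gene was not analysed here, which leaves the depth of the knockdown unchecked, and each group is called by its label.

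Of 10 erythroid markers that define K562, 9 were measured and detected on all 5 arrays, among them HBG1, HBG2, GATA1 and TFRC. Their summed signal was 184630 to 188771 in the knockdown and 192866 to 198341 in the control. HBG1 and HBG2 each read between 64054 and 66496 on every array and make up most of these sums, which thus say little of the other markers. HBZ, an embryonic globin, was the only 1 of the 9 that changed, and it fell by 0.56 on the log2 scale (limma adjusted p = 0.0015), a call that was lost with the background subtracted (0.052) or with normexp (0.059). Of 16 markers of liver, fat, epithelial, fibroblast and other blood cells, 6 were measured (LEP, KRT18, KRT8, ALB, LYZ and CD14). Their summed signals were 5102 to 5349 in the knockdown and 5247 to 5479 in the control. KRT8, at 3083 to 3404 on every array, makes up most of these sums, which thus say little of the other markers. KRT18 was detected on only 2 arrays. ALB, an albumin gene of liver, fell by 0.29 (limma adjusted p = 0.046), a call near the threshold. It was lost with each array left out except knockdown replicate 3 (limma adjusted p from 0.13 to 0.17), without normalization (0.11), with median scaling (0.059), with array weights (0.058) and under both background corrections (0.13 and 0.15). The part of these markers in the results below was not tested. In bulk RNA, fewer cells of a type and less RNA per cell cannot be told apart.

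Cells make cholesterol from acetyl-CoA through mevalonate, squalene and lanosterol, and they make fatty acids from the same acetyl-CoA through malonyl-CoA. Both arms are driven by the SREBP transcription factors, which SREBF1 and SREBF2 encode. When membrane sterol is low, the escort protein SCAP carries SREBP from the endoplasmic reticulum to the Golgi, where proteases release its active part. INSIG proteins hold SCAP back when sterol is plentiful. At promoters, SREBP works together with the factors NF-Y and Sp1, so the genes of the pathway often move together.

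To show what such promoters look like, the bases before the start site are given for the members that changed, MSMO1 and SREBF1, and for the members whose window holds an SREBP motif, SREBF2 and INSIG1. Sequences and coordinates are from RefSeq (GRCh38.p14), in the direction of transcription. Each run holds the 250 bases before the start. Capitals mark 4 motifs searched on both strands, namely the SREBP sterol element TCACNCCAC, the SREBP E-box TCACGTGA, the NF-Y box CCAAT and the Sp1 box GGGCGG. None of these motifs contains another, though copies of the Sp1 box can run into each other.
MSMO1 (chr4:165327419-165327668, plus strand): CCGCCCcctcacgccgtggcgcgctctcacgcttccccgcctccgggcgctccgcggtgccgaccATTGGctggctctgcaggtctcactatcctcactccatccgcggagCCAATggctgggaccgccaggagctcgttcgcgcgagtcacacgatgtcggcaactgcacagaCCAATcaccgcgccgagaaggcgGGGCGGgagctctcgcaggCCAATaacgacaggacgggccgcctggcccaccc
SREBF1 (chr17:17836987-17837236, minus strand): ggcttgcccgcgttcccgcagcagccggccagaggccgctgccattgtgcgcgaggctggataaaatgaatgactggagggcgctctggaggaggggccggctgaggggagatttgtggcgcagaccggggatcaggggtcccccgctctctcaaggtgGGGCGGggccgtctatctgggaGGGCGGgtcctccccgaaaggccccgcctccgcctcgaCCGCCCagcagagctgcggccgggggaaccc
SREBF2 (chr22:41832855-41833104, plus strand): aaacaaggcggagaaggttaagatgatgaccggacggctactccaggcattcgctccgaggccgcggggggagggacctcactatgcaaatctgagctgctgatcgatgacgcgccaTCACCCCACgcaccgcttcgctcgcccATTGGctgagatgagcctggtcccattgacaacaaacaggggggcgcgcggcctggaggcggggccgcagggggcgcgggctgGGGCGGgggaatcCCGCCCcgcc
INSIG1 (chr7:155297628-155297877, plus strand): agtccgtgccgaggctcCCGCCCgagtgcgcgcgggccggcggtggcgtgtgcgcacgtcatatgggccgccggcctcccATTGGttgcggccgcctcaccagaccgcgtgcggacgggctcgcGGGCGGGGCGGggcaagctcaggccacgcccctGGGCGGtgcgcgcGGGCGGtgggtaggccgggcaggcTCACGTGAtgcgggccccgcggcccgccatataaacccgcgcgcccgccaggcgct

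In these runs MSMO1 holds 4 NF-Y boxes and 2 Sp1 boxes, and SREBF1 holds 3 Sp1 boxes and no NF-Y box. SREBF2 holds the sterol element, 133 bases before the start, with 1 NF-Y box and 2 Sp1 boxes. INSIG1 holds the E-box, 56 bases before the start, with 1 NF-Y box and 5 Sp1 boxes. RefSeq windows of 250 bases before to 50 after the start were found for 26 of the 29 measured genes, 35 windows in all. The NF-Y box was in 65.7% of these windows and in 34.74% of the 22049 windows of protein-coding genes. The Sp1 box was in 91.4% and 56.23% of them. The sterol element was in 1 of the 35 windows, against 1.12% of the protein-coding windows, and the E-box likewise in 1, against 1.27%. These letters describe the windows and say nothing of binding in these cells.

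Most of these genes were close to the control level in the knockdown. At a Benjamini-Hochberg adjusted p under 0.05 over all probes (limma), 1 of the 29 genes rose, SREBF1, and 1 fell, MSMO1, when each gene is read on its brightest probe. That is 3.45% in each direction, beside 2.56% higher and 3.70% lower among all 11041 genes, so these genes were called about as often as genes at large. Of the 40 probes, 3 were called (7.5%), against 5.07% of all probes. At an unadjusted p under 0.05, 6 of the 29 genes passed (20.7%), against 24.0% of all genes. The arrays of the 2 groups did not overlap for 14 genes (48.3%), against 41.8% of all genes.

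Each difference below is the knockdown mean minus the control mean, with its standard error after ±, over 3 and 2 arrays, on the scale log2(signal + 16) after quantile normalization. Signals are the normalized bead signals on the linear scale, with the background, a median of 111.3 over undetected beads, still in them. The differences of the 29 genes ran from -0.42 to 0.25 with a median of -0.038, beside -0.01 over all genes, and 21 of the 29 were negative, beside 53.2% of all genes. Without normalization between arrays 13 were negative, beside 3319 of all 11041 genes. The median was then 0.044, beside 0.07 over all genes, so the sign of many small differences depends on this step. For 22 of the 27 genes that were not called, the 95% interval of the difference lay within 0.3 of 0.

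**Figure D1:**
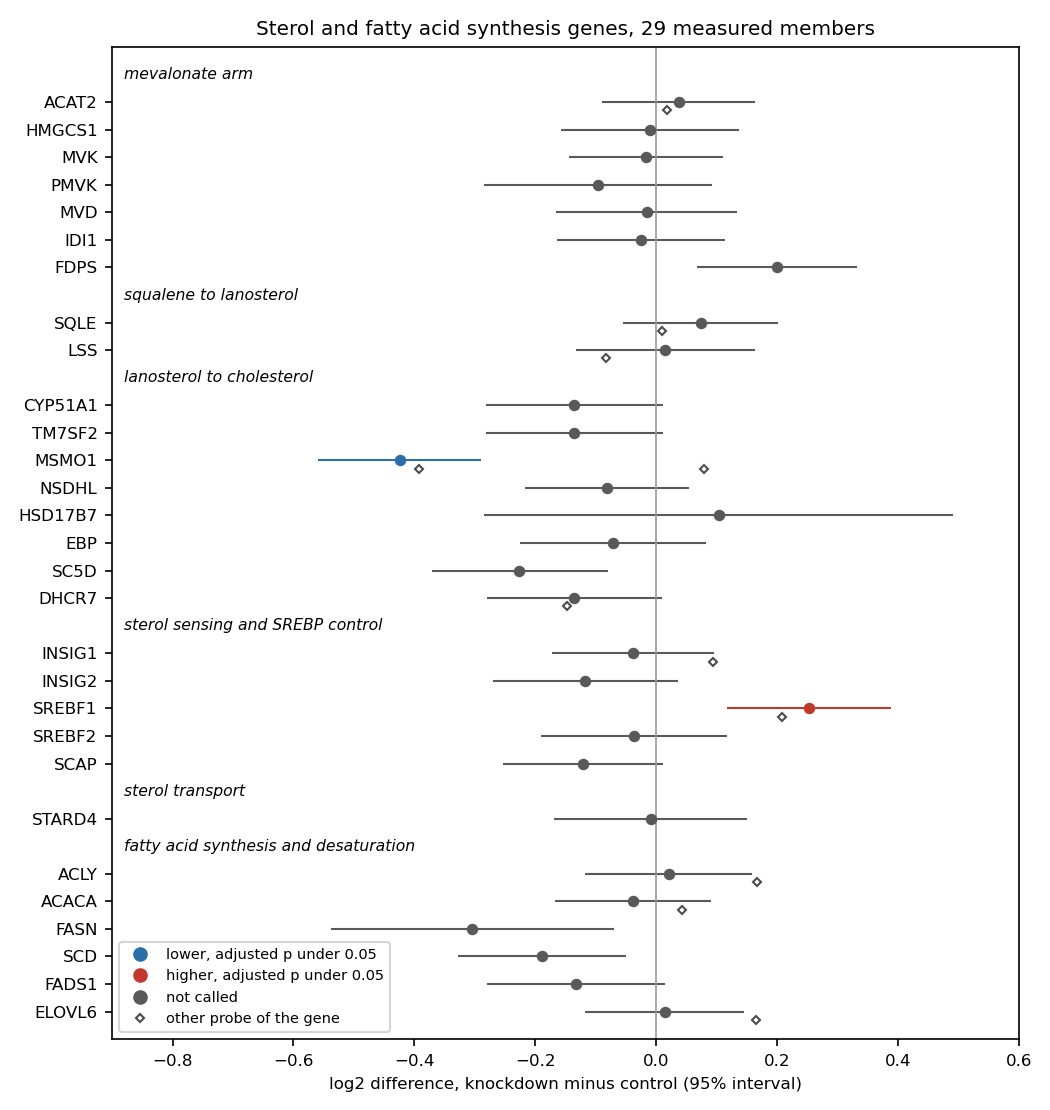
Log2 differences (knockdown minus control, horizontal axis) of the 29 measured genes by role, each on its brightest probe with its 95% interval, and other probes of a gene as open diamonds. MSMO1 at -0.42 and SREBF1 at 0.25 are the coloured points past the threshold, and the third probe of MSMO1 lies on the other side of 0.

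MSMO1 encodes a sterol oxidase that removes methyl groups from the ring, after the demethylation of lanosterol by CYP51A1, and it fell in the knockdown. On probe ILMN_1720889, its brightest, the signals were 2395, 2428 and 2261 in the knockdown and 3217 and 3129 in the control. All 3 knockdown arrays lay below both controls. On the log2 scale the level was 11.21 ± 0.05 (SD, n = 3) against 11.64 ± 0.03 (SD, n = 2). The gap of -0.42 ± 0.06 (1.34-fold) exceeded the spread between arrays (limma adjusted p = 0.0046). By p it ranked 116 among the 11041 genes. The call held with any 1 array left out, with differences from -0.45 to -0.39, and was lost with the background subtracted (-0.45, limma adjusted p = 0.061) or with normexp (-0.45, limma adjusted p = 0.067).

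The other MSMO1 probes did not all follow. On ILMN_1689842 the signals were 589.4, 486.8 and 506.8 in the knockdown and 704.2 and 686.5 in the control, again without overlap. This probe fell by 0.39 ± 0.08 (limma adjusted p = 0.023), a call that was lost without knockdown replicate 2 or 3 or without either control replicate (limma adjusted p from 0.074 to 0.11). On ILMN_2402499 the signals were 289.4, 268.6 and 256.6 in the knockdown and 262.6 and 249.1 in the control, so the groups overlapped. Its difference was 0.08 ± 0.07 (limma adjusted p = 0.55), with a 95% interval of -0.07 to 0.23 that does not meet the interval of -0.56 to -0.29 on the brightest probe. Which transcripts each probe reads was not tested.

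SREBF1, which encodes the SREBP form tied mostly to fatty acid synthesis, rose. Its signals on ILMN_1663035 were 1159, 1105 and 1079 in the knockdown and 943.9 and 920.8 in the control. The 3 knockdown arrays were all above both controls. The level was 10.14 ± 0.05 (SD, n = 3) against 9.89 ± 0.03 (SD, n = 2), a difference of 0.25 ± 0.06 or 1.19-fold (limma adjusted p = 0.042). Its second probe, ILMN_2328986, read 342.3, 376.1 and 343.3 in the knockdown and 310.9 and 296.6 in the control. That probe had the same direction, without overlap, but at 0.21 ± 0.07 it was not called (limma adjusted p = 0.10). The SREBF1 call lies close to the threshold. It was lost without any 1 of the 5 arrays (differences of 0.23 to 0.28, limma adjusted p from 0.075 to 0.16). The same held under both background corrections (limma adjusted p = 0.13 in each). It was also lost with array weights and with a term for replicate number (limma adjusted p = 0.053 and 0.12).

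**Figure D2:**
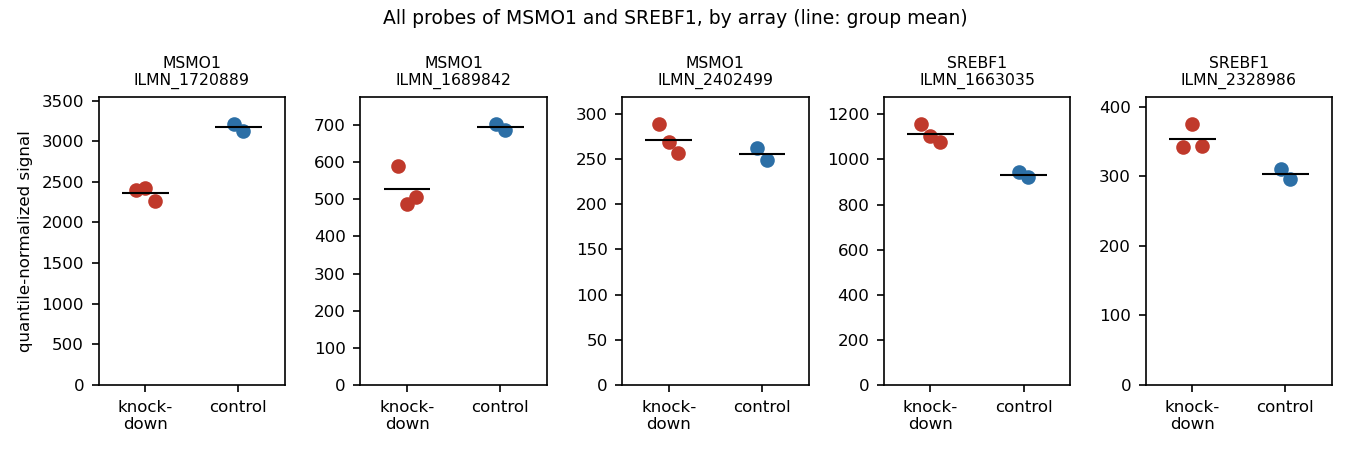
Quantile-normalized signal (vertical axis, from 0) of every probe of MSMO1 and SREBF1, a panel for each probe, with a point for each array and a line at each group mean. The knockdown arrays lie below the controls on 2 MSMO1 probes and above them on both SREBF1 probes, while the groups overlap on ILMN_2402499.

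The other regulators were not called. SCAP, the escort of SREBP, had signals of 3710, 3958 and 3836 in the knockdown and 4148 and 4192 in the control, which do not overlap. Its difference was -0.12 ± 0.06 (limma adjusted p = 0.28). INSIG2, which retains SCAP in the endoplasmic reticulum, read 493.8, 432.3 and 448.5 against 492.1 and 502.7, so knockdown replicate 1 reached the controls. Its difference was -0.12 ± 0.07 (limma adjusted p = 0.37). INSIG1, a retention protein that is itself a target of SREBP, was at -0.04 on its brightest probe and 0.09 on the other. SREBF2, the SREBP gene tied mostly to sterol synthesis, was at -0.04 on a probe with signals of only 164.6 to 188.1, near the background, where a change would be hard to see. SREBF1 was thus the only 1 of the 5 genes of sensing and SREBP control that passed, beside 2.56% called higher among all genes. The 5 had a median of -0.04.

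In the mevalonate arm, from acetyl-CoA to farnesyl diphosphate, 0 of 7 genes were called (limma, with 1 at an unadjusted p under 0.05). Among all genes 2.56% were called higher and 3.70% lower, and 24.0% passed the unadjusted level. FDPS, the farnesyl diphosphate synthase, came nearest, with signals of 1102, 1041 and 1060 in the knockdown and 942.7 and 912.0 in the control. Every knockdown array exceeded the controls, and the difference was 0.20 ± 0.06 (limma adjusted p = 0.088). The other 6 genes lay between -0.10 and 0.04. HMGCS1, which makes the substrate of the mevalonate step and is a common readout of SREBP activity, read 3114, 3240 and 3034 in the knockdown and 3312 and 2999 in the control. Its groups overlapped, and the difference was -0.01 ± 0.07, with a 95% interval of -0.16 to 0.14. MVD, the mevalonate diphosphate decarboxylase, and IDI1, the isopentenyl diphosphate isomerase, were at -0.02 and -0.03, and MVK, the mevalonate kinase, at -0.02 on a dim probe with signals of 204.3 to 211.8. ACAT2, a thiolase that joins acetyl-CoA units, was at 0.04 on one probe and 0.02 on the other. PMVK, the phosphomevalonate kinase, was at -0.10 ± 0.09, with control replicate 2 at 612.6 and the other 4 arrays between 494.7 and 531.1.

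Between squalene and lanosterol, SQLE, the squalene epoxidase and a slow step of the pathway, was at 0.07 ± 0.06 and at 0.01 on its second probe. LSS, which closes the ring to give lanosterol, was at 0.02 ± 0.07 and at -0.08 on its second probe. Neither gene was called (limma adjusted p = 0.52 and 0.93 on the brightest probes).

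In the stretch after lanosterol most differences were negative, as were 5 of 7 in the mevalonate arm, where the median was -0.015. Of the 8 enzymes of this stretch, 7 had negative differences, 1 of them called (MSMO1), and the median was -0.14, beside 53.2% negative, 3.70% called lower and a median of -0.01 over all genes. The groups did not overlap for 6 of the 8, with the knockdown below, as for 23.9% of all genes. The same 7 were negative under each alternative setting and with each array left out, also without normalization, where the median was -0.07. This is a description of a stretch of the pathway and carries no test of its own.

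SC5D, a desaturase of the sterol ring, read 662.3, 737.4 and 722.4 in the knockdown and 837.3 and 821.0 in the control. All knockdown arrays were below the controls, and the difference was -0.23 ± 0.07, not called (limma adjusted p = 0.080). CYP51A1, the lanosterol demethylase, read 1058, 1030 and 1154 against 1191 and 1184. Its difference was -0.14 ± 0.07 (limma adjusted p = 0.27). DHCR7, the reductase of the last step to cholesterol, read 1269, 1329 and 1369 against 1515 and 1392. The controls again lay above, and its probes were at -0.14 ± 0.07 and -0.15 ± 0.07. TM7SF2, a sterol reductase, read 439.1, 408.1 and 445.7 against 493.2 and 456.6, with no overlap and a difference of -0.14 ± 0.07. NSDHL, which works on the same methyl groups as MSMO1, was at -0.08 ± 0.06, and EBP, the sterol isomerase, at -0.07 ± 0.07. Neither was called.

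HSD17B7, the ketosteroid reductase of the same stretch, stood apart by its spread. Its signals were 7587, 5600 and 4880 in the knockdown and 4650 and 6520 in the control. The SD on the log2 scale was 0.33 in the knockdown and 0.34 in the control, and the standard error of 0.17 was above the median of 0.07 over all probes. The difference of 0.10 thus has a 95% interval of -0.28 to 0.49, and leaving out 1 array moved it between -0.14 and 0.35. RefSeq lists pseudogenes of this gene (HSD17B7P1 and HSD17B7P2), and whether the probe reads them was not tested. STARD4, a carrier of cholesterol between membranes, was at -0.01 ± 0.07 with signals of 187.6 to 218.2, also near the background.

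**Figure D3:**
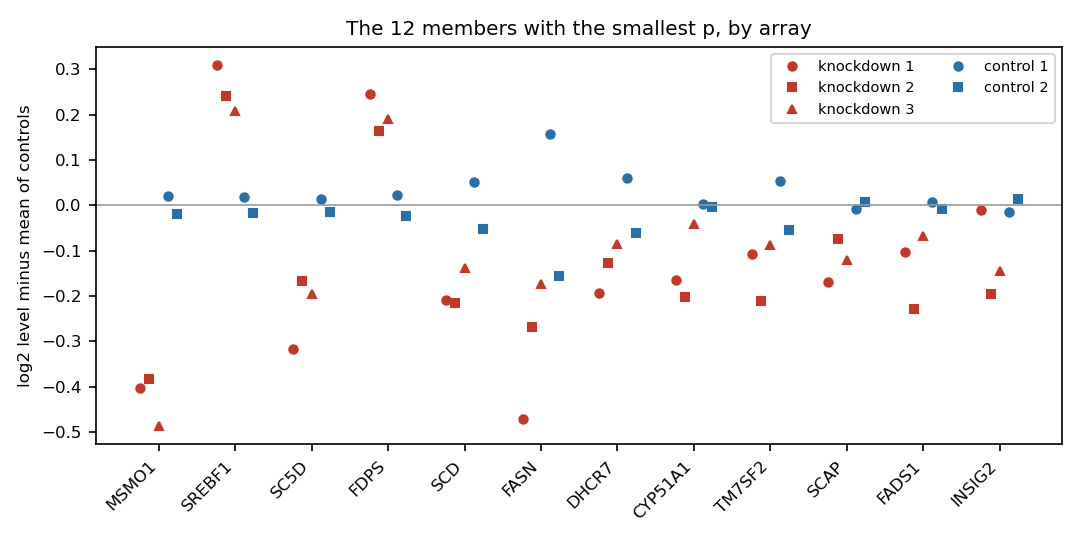
Log2 level of each array minus the mean of the controls (vertical axis) for the 12 members with the smallest p, with 3 knockdown arrays in red and 2 control arrays in blue. Knockdown arrays lie above both controls for SREBF1 and FDPS and below them for MSMO1, SC5D and most others, while INSIG2 overlaps and FASN spreads widely in both groups.

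In fatty acid synthesis 0 of 6 genes were called (limma, with 2 at an unadjusted p under 0.05, beside 24.0% of all genes). FASN, the fatty acid synthase, had the largest difference of the 6, with signals of 4898, 5637 and 6026 in the knockdown and 7576 and 6095 in the control. The groups did not overlap, but knockdown replicate 3 and control replicate 2 were close. Its difference was -0.30 ± 0.11 (limma adjusted p = 0.13), and it was -0.46 without control replicate 2 and -0.15 without control replicate 1. SCD, the stearoyl-CoA desaturase that makes monounsaturated fatty acids, read 16431, 16367 and 17255 in the knockdown and 19706 and 18322 in the control. The control arrays were both higher, and the difference was -0.19 ± 0.06 (limma adjusted p = 0.12). FADS1, a desaturase of polyunsaturated fatty acids, read 4270, 3912 and 4373 against 4609 and 4562, a difference of -0.13 ± 0.07 without overlap (limma adjusted p = 0.28).

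The other fatty acid enzymes were nearer to 0 on their brightest probes. ACLY, which frees acetyl-CoA from citrate, was at 0.02 ± 0.06 on its brightest probe and 0.17 ± 0.08 on the other. ACACA, the acetyl-CoA carboxylase, was at -0.04 ± 0.06 and 0.04 ± 0.06. ELOVL6, an elongase of long-chain fatty acids, was at 0.01 ± 0.06 and 0.17 ± 0.06, the latter with knockdown signals of 1089, 1137 and 1044 and control signals of 984.1 and 954.9. These groups did not overlap on the dimmer probe and did on the brighter, and none of these probes was called.

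Probes of 1 gene were a check on these small differences. Of the 10 genes with more than 1 probe, 6 had all probes in 1 direction and 4 (LSS, MSMO1, INSIG1 and ACACA) had probes in both. The gap between probes was 0.50 for MSMO1 and at most 0.15 for the other 9. The second probes of LSS and ACAT2 read near the background, which limits the check for these genes. With the background subtracted the LSS probes were at 0.02 and -0.24, and the ACAT2 probes at 0.04 and 0.06. The remaining 19 genes had 1 probe each among the probes given with sample names.

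When kept probes of a gene were averaged in place of taking the brightest, 4 genes were called in place of 2. SREBF1 (0.23) and FDPS (0.20) were higher, and MSMO1 (-0.25) and SC5D (-0.23) lower, with limma adjusted p from 0.026 to 0.045. That fit and its adjustment ran over 11041 genes in place of 19105 probes. FDPS and SC5D have 1 probe each, so their differences are the same as before. Their standard errors (0.052 and 0.059) and adjusted p (0.045 for each, limma) moved.

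**Figure D4:**
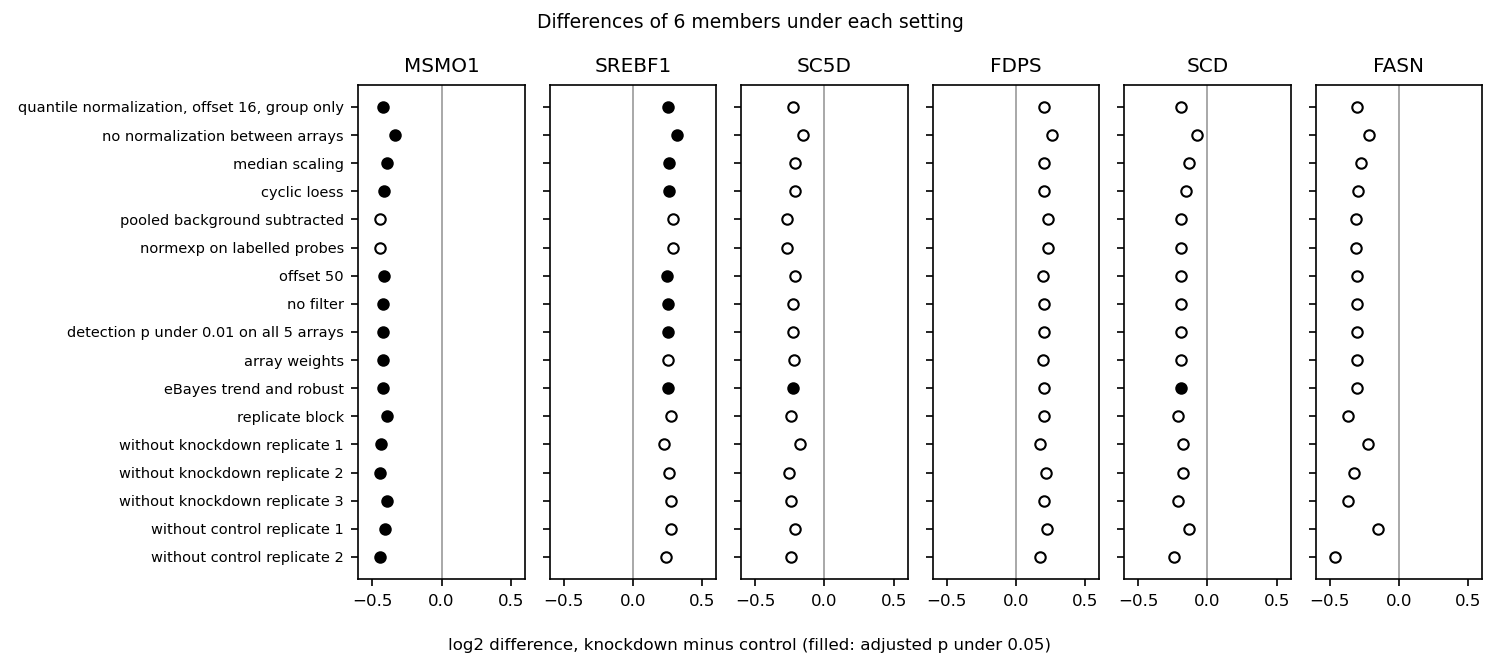
Log2 differences (horizontal axis) of 6 members under the reported setting (top line), the alternatives and with each array left out, filled where the adjusted p was under 0.05. MSMO1 loses its call under 2 background corrections, and no value crosses 0. SREBF1 loses its call without any 1 array, under the same corrections, with array weights and with the replicate block.

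Other genes of sterol and fatty acid metabolism were read from lists by role. Of 10 further genes of sterol and isoprenoid synthesis, 0 were called (limma, with 1 at an unadjusted p under 0.05, beside 24.0% of all genes). The smallest p-values were those of DHDDS, a subunit of the enzyme that builds the dolichol chain, at -0.20 ± 0.07, and FAXDC2, at -0.18 ± 0.08. Of 15 genes of sterol uptake, efflux and SREBP processing, 1 was called lower, NR1H3, beside 3.70% of all genes. It encodes the oxysterol receptor LXR-alpha, known to activate SREBF1 transcription. Its signals were 822.6, 798.1 and 849.3 in the knockdown and 1064 and 1025 in the control. The receptor gene fell by 0.34 ± 0.06 (limma adjusted p = 0.013), while SREBF1 rose, and the NR1H3 call was lost without knockdown replicate 2 or without either control replicate (limma adjusted p from 0.057 to 0.081).

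Of 13 further genes of fatty acid synthesis and elongation, 12 had negative differences and 2 fell, beside 53.2% negative and 3.70% called lower among all genes. The 2 that fell are both dehydratases of the elongation cycle for very long-chain fatty acids. The median of the list was -0.12, beside -0.01 over all genes, and the groups did not overlap for 10 of the 13, with the knockdown below, as for 23.9% of all genes. Without normalization 9 of the 13 were negative, beside 3319 of all 11041 genes, with a median of -0.04 against 0.07. HACD2 read 1062, 962.4 and 1087 in the knockdown and 1360 and 1417 in the control, and fell by 0.42 ± 0.07 (limma adjusted p = 0.0083). Its second probe fell as well, by 0.47 (limma adjusted p = 0.0089), and both calls were lost without control replicate 2 (limma adjusted p = 0.071 and 0.079). HACD3 read 6131, 6171 and 6517 against 8223 and 7582 and fell by 0.33 ± 0.06 (limma adjusted p = 0.018). Its other probes were at -0.21 and -0.01 and were not called, and the HACD3 call was lost without knockdown replicate 1 or 2 or control replicate 1 (limma adjusted p from 0.063 to 0.11).

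Downstream, 1 of 11 genes of fatty acid activation and glycerolipid synthesis was called lower, beside 3.70% of all genes. GPAM, which starts glycerolipid synthesis in mitochondria, read 422.8, 477.2 and 472.6 in the knockdown and 559.1 and 609.7 in the control, and fell by 0.34 ± 0.07 (limma adjusted p = 0.026). Its second probe was at -0.16 and was not called, and the call on the first was lost without any 1 array (limma adjusted p from 0.053 to 0.15). Of 18 genes of fatty acid oxidation, 1 rose, beside 2.56% called higher among all genes. ACADM, the medium-chain acyl-CoA dehydrogenase, read 4192, 4376 and 4489 in the knockdown and 3535 and 3477 in the control, a difference of 0.31 ± 0.06 (limma adjusted p = 0.018). Its second probe was at 0.09, not called, and the ACADM call was lost without knockdown replicate 2 or 3 or either control replicate (limma adjusted p from 0.064 to 0.096). The oxidation list had a median of 0.03, with 10 of 18 positive, beside -0.01 and 46.8% over all genes. Without normalization its median was 0.10, with 16 of 18 positive, beside 0.07 and 7722 of 11041 over all genes. The calls of NR1H3, both HACD2 probes, HACD3, GPAM and ACADM were all lost under both background corrections (limma adjusted p from 0.077 to 0.13). Those of NR1H3, HACD3 and GPAM were also lost without normalization (limma adjusted p = 0.055, 0.090 and 0.053).

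**Figure D5:**
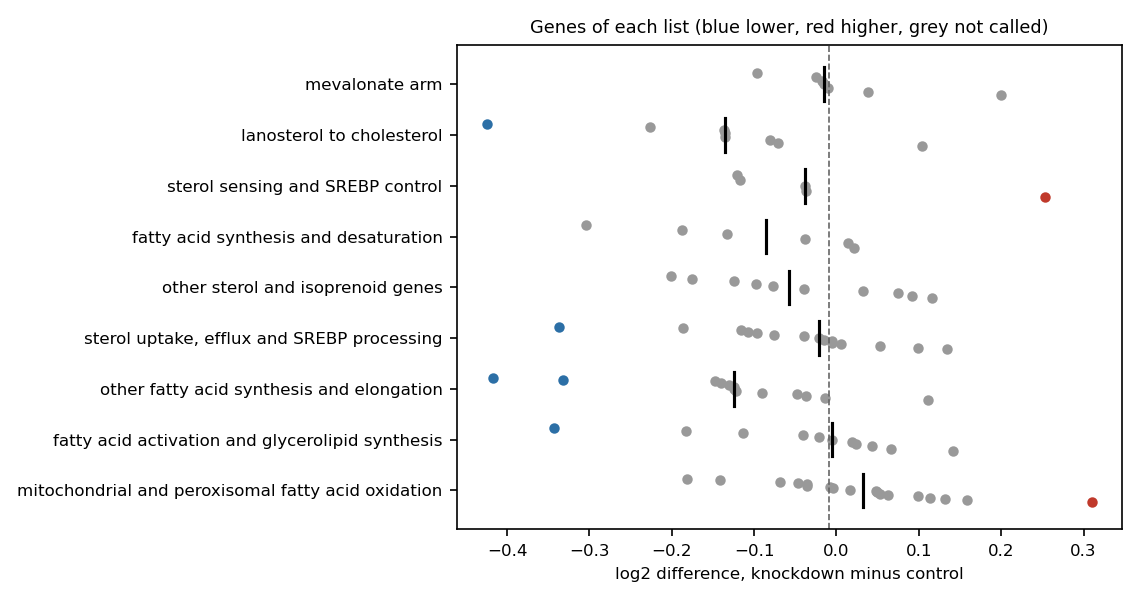
Log2 differences (horizontal axis) of the measured genes of the larger roles and of the further lists, with a point for each gene. The roles of SQLE and LSS and of STARD4 are not drawn. A black bar marks the list median and a dashed line the median of all genes. Points past the threshold are blue where lower and red where higher. The medians of the post-lanosterol enzymes (-0.14) and of the further genes of fatty acid synthesis and elongation (-0.12) lie lowest.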

How the data were processed

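The authors deposited a bead intensity for each probe and sample, on a linear scale. Per the submitters' processing notes the tool was GenomeStudio 2009.2. No source used here gives its settings. A larger deposited table gives 47321 probes with a detection p-value each, per the file headers, in 10 columns whose names match no sample. It served as a key, for the count of arrays with detection, and pooled for the background.

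Each of the 19144 labelled rows shares its 5 signals with exactly 1 probe of that table, but only 47 carry that probe's ID. Rows were named by the matched ID. Levels of probe pairs of 1 gene correlated with Pearson's r of 0.43 across 2294 genes (which are not independent replicates) under those IDs and of 0.00 under the printed ones. Symbols come from the platform annotation. For 14574 of 14581 probes with 1 symbol, the RefSeq symbol of the gene identifier was used, whether or not it differed.

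For the tests, 16 was added to each signal, log2 taken and the arrays brought to 1 distribution by quantile normalization. Array medians of the deposited intensity ran from 455.6 to 498.6. Probes with detection p under 0.05 on at least 2 arrays were kept. Knockdown and control were compared with limma 3.58.1 (lmFit, eBayes, group as the only term) in R 4.3.3, with Benjamini-Hochberg adjustment over all 19105 probes and a threshold of 0.05. A gene was read on its brightest probe. The fit was tested on simulated data. The number of arrays limits the precision.

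Members, lists and the naming rule were chosen with earlier results of these data known. By that rule, every member is given, with each array's signal for the called members and those of smallest p up to 12 genes. The further lists are named by up to 4 called genes, or by the 2 of smallest p. HMGCS1, PMVK, HSD17B7 and ELOVL6 are given by array beyond that rule, chosen after their values were seen. Alternatives covered normalization, background, offset, filter, array weights, eBayes options, a replicate block, the mean over probes and each array left out.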

Additional observations from a re-analysis of the deposited data

How the results depend on the processing

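Without normalization between arrays, 791 probes were higher and 153 lower, against the reported 449 and 519 (83.8% higher against 46.4%), 1 member probe was lower against 2, and the median over the member genes was 0.044 against -0.038. With the pooled background subtracted 122 were higher and 80 lower, and with normexp 95 and 52 (60.4% and 64.6% higher). Under both corrections 0 member genes and 0 member probes were called in either direction by limma, while MSMO1 stayed at -0.45. With array weights 0 member genes and 0 member probes were higher. The trend and robust options called 4 member probes and 3 member genes lower, adding SC5D and SCD. With the mean over the probes of a gene, 2 member genes were higher and 2 lower. The cause of these changes was not tested. The last setting, fitted and adjusted over 11041 genes, added FDPS and SC5D. These 2 genes have 1 probe each and kept their differences, while their standard errors and adjusted p moved.

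The labels do not say whether arrays with the same replicate number in the 2 groups form pairs, and the reported fit treats them as unpaired. With the replicate block, the counts were 194 higher and 145 lower probes, 0 higher and 1 lower member probes, and 0 higher member genes. Outside the members, NR1H3, HACD3, ACADM and ALB were not called with it (limma adjusted p from 0.050 to 0.11). Deviations of same-numbered arrays from their group means correlated at -0.22 and -0.09. With 2 controls, the control deviations mirror each other, so these values cannot decide whether arrays are paired. Leaving out each array in turn gave 175 to 240 higher probes and 126 to 218 lower ones, with 0 higher and 1 to 2 lower member probes, and 0 higher and 1 lower member genes (limma). For single member probes, 580 of the values recomputed kept direction and side of the threshold, 19 lost the call (MSMO1 and SREBF1), 2 gained it (SC5D and SCD), and 36 values that were never called changed sign. The signal over background limits SREBF2, MVK and STARD4, whose normalized signals lay under 220. It also limits the second probes of LSS (168.1 to 186.8) and ACAT2 (171.2 to 191.5).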
